A study of Rattus norvegicus with 24 samples.

Results

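The genes described here are 10 genes that T lymphocytes and natural killer (NK) cells express, read in 24 libraries of rat lung. They were chosen by symbol (Trat1, Cd3d, Cd3e, Cd3g, Cd5, Cd8a, Lck, Nkg7, Prf1 and Klrd1), each symbol stood on 1 line of the count files, and they are 10 of the 16881 distinct symbols listed. The series asked how repeated exposure to whole-cigarette smoke condensate (WCSC), the material collected from the smoke of whole cigarettes, damages the lung. The 8 groups had 3 libraries each and combined a dose (control, or 5, 10 or 20 mg/mL of WCSC) with a day of sampling (day 6 or day 12). All rats were labelled wild type and all tissue was labelled lung. The strain, the age, the route of exposure and the treatment of the controls were not given in the sources used here, and the labels do not say whether the libraries of a group came from separate animals, so the p-values measure the spread between libraries, which may be technical. Epithelial markers of lung had summed levels of 18100 to 48400 CPM (reads scaled to the library total) across the libraries, all 8 of 8 markers being detected.

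T cells recognise antigen through a receptor whose signal is carried into the cell by the CD3 proteins. The kinase LCK, which CD4 and CD8 can bind, starts that signal. CD8 T cells and NK cells kill target cells by releasing granules that hold perforin and granzymes, and NK cells read surface molecules of the target through receptors such as the CD94 heterodimers. In the lung these cells sit in the vessels, the airway wall and the alveolar septa, and lymphoid aggregates and lymph nodes that are cut out with a piece of lung carry many more of them. A bulk library reads all of these cells together, so fewer cells of a type and less RNA per cell cannot be told apart.

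The start regions of 5 of the genes are printed because the values below turn on them: Trat1, which was read in every exposed library but in no control library at day 6, Cd3d and Cd3g, which lie side by side, and Nkg7 and Prf1, the pair of genes whose levels followed each other most closely. The sequences are those of RefSeq on the build GRCr8 (the reads were placed on rn6), from 250 bases before to 50 bases after the annotated start, on the strand of the gene, 5′ to 3′. Capitals mark GGAAG, the core bound by ETS factors, and TGTGGT, the core bound by RUNX factors, on either strand.
Trat1 (chr11:65498492-65498791, plus strand): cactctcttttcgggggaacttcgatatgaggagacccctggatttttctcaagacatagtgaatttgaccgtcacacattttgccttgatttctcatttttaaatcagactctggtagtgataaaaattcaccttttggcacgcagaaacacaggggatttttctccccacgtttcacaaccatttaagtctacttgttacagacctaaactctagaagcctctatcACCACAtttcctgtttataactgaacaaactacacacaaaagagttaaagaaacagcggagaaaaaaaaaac
Cd3d (chr8:54185269-54185568, plus strand): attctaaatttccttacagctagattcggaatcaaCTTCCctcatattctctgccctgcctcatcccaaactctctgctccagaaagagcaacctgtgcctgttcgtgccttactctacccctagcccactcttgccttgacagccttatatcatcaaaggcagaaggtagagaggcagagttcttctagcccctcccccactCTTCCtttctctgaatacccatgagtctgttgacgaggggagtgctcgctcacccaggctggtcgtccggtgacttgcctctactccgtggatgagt
Cd3g (chr8:54183869-54184168, minus strand): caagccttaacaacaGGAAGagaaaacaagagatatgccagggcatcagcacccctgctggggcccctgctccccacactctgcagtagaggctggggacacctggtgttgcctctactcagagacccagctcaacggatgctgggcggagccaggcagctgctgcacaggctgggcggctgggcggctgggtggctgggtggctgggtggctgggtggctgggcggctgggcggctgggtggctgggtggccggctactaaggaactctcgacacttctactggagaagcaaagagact
Nkg7 (chr1:102981247-102981546, plus strand): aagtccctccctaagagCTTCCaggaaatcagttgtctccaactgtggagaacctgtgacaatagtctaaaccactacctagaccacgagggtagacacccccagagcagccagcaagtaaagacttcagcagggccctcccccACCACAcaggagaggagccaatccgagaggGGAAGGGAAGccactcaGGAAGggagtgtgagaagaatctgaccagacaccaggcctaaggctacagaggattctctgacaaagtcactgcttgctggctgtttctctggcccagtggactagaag
Prf1 (chr20:29788790-29789089, plus strand): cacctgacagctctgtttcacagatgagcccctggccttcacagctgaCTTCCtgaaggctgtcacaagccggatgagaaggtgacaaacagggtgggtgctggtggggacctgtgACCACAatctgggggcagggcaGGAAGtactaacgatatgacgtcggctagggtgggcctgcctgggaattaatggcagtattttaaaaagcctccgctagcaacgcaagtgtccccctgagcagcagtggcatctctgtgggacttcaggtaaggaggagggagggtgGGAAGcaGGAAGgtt

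RefSeq start regions were found for 9 of the 10 genes, with 2 for Lck, which makes 10 windows; Klrd1 had none in the table. The ETS core was in 8 of these 10 windows and in 70.1% of all 33469 windows of 300 bases. The RUNX core was in 4 of the 10 and in 17.3% of all windows. The E-box CANNTG was in 7 of the 10 and in 72.1% of all windows, and the GATA letters AGATAA were in 0 of the 10 and in 11.6% of all windows. The ETS and RUNX letters cannot overlap each other on either strand, whereas E-box matches can overlap RUNX matches. These matches are descriptions of the letters. The starts of Cd3g and Cd3d lie 1601 bases apart and point away from each other, Cd3e starts 26.3 kb from Cd3d as the next gene, and Klrd1 lies between Klre1 and Klrk1, receptor genes of the same NK cluster. All 10 genes passed the filter on low counts and were tested among 11421 genes.

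Trat1, which encodes a small membrane adaptor that associates with the T cell receptor, had the sparsest reads, 210 over the 24 libraries. At day 6 it had 0, 0 and 0 CPM in the control libraries, 2.75, 4.57 and 0.534 CPM at 5 mg/mL, 2.87, 2.73 and 0.561 CPM at 10 mg/mL, and 0.812, 2.05 and 0.51 CPM at 20 mg/mL (replicates 1, 2 and 3). All 9 exposed libraries of day 6 thus stood above all 3 controls, and the exposed values fell far apart within each dose. The share of all genes with such a separation of 9 libraries from 3 was not counted. In reads, replicates 1, 2 and 3 held 28, 35 and 3 at 5 mg/mL, 24, 22 and 4 at 10 mg/mL, and 4, 17 and 4 at 20 mg/mL. At day 12 it had 0.404, 2.17 and 1.25 CPM in controls, 0.128, 0.904 and 0.445 CPM at 5 mg/mL, 0.709, 0.667 and 0.136 CPM at 10 mg/mL, and 0.792, 2.3 and 1.22 CPM at 20 mg/mL, so that each exposed group overlapped the controls.

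Against a control level set at the floor of 3 reads over the whole group (0.134 CPM), pooled Trat1 at day 6 was at least 20.9-fold higher at 5 mg/mL (2.81 CPM), at least 15.8-fold higher at 10 mg/mL (2.12 CPM) and at least 8.84-fold higher at 20 mg/mL (1.19 CPM). The last bound was 4.66-fold without replicate 2 of 20 mg/mL, which held 17 of the 25 reads of that group. Trat1 passed the filter on low counts only through libraries in which it was read, and it did not pass in fits of a day 6 dose and its controls alone, so the p-values that follow are given as descriptions. At 5 mg/mL the unadjusted p was 8.9e-05 and the Benjamini-Hochberg adjusted p was 0.675 in edgeR's quasi-likelihood test. At 10 mg/mL the unadjusted p was 0.00016 and the adjusted p was 0.989 in edgeR. At 20 mg/mL the unadjusted p was 0.00077, with an adjusted p of 0.7 in the same edgeR test. DESeq2 gave an adjusted p of 0.0452 for Trat1 at 5 mg/mL on day 6, past the threshold of 0.05, and 0.197 and 0.19 at 10 and 20 mg/mL.

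The 9 exposed libraries of day 6 did not behave alike in other measures. The 5 of them that were among the 8 libraries of the series in which fewest genes were detected (11454 to 11727 genes after thinning all libraries to 1 depth) had 2.05 to 4.57 CPM of Trat1, and total counts from 8522063 to 11109713. The other 4, with 11991 to 12476 detected genes, had 0.51 to 0.812 CPM and total counts from 5203358 to 7157823. Control replicate 1 of day 6 was also among the 8, with 8671771 counts, and had 0 reads of Trat1. The part of detection and depth in the Trat1 difference was not tested. In the control lungs Trat1 had 0.404, 2.17 and 1.25 CPM at day 12 and 0, 0 and 0 CPM at day 6 (unadjusted p = 0.0006, adjusted p = 1 in the same edgeR test), so the 3 day 6 controls also stood below the day 12 controls.

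**Figure D1:**
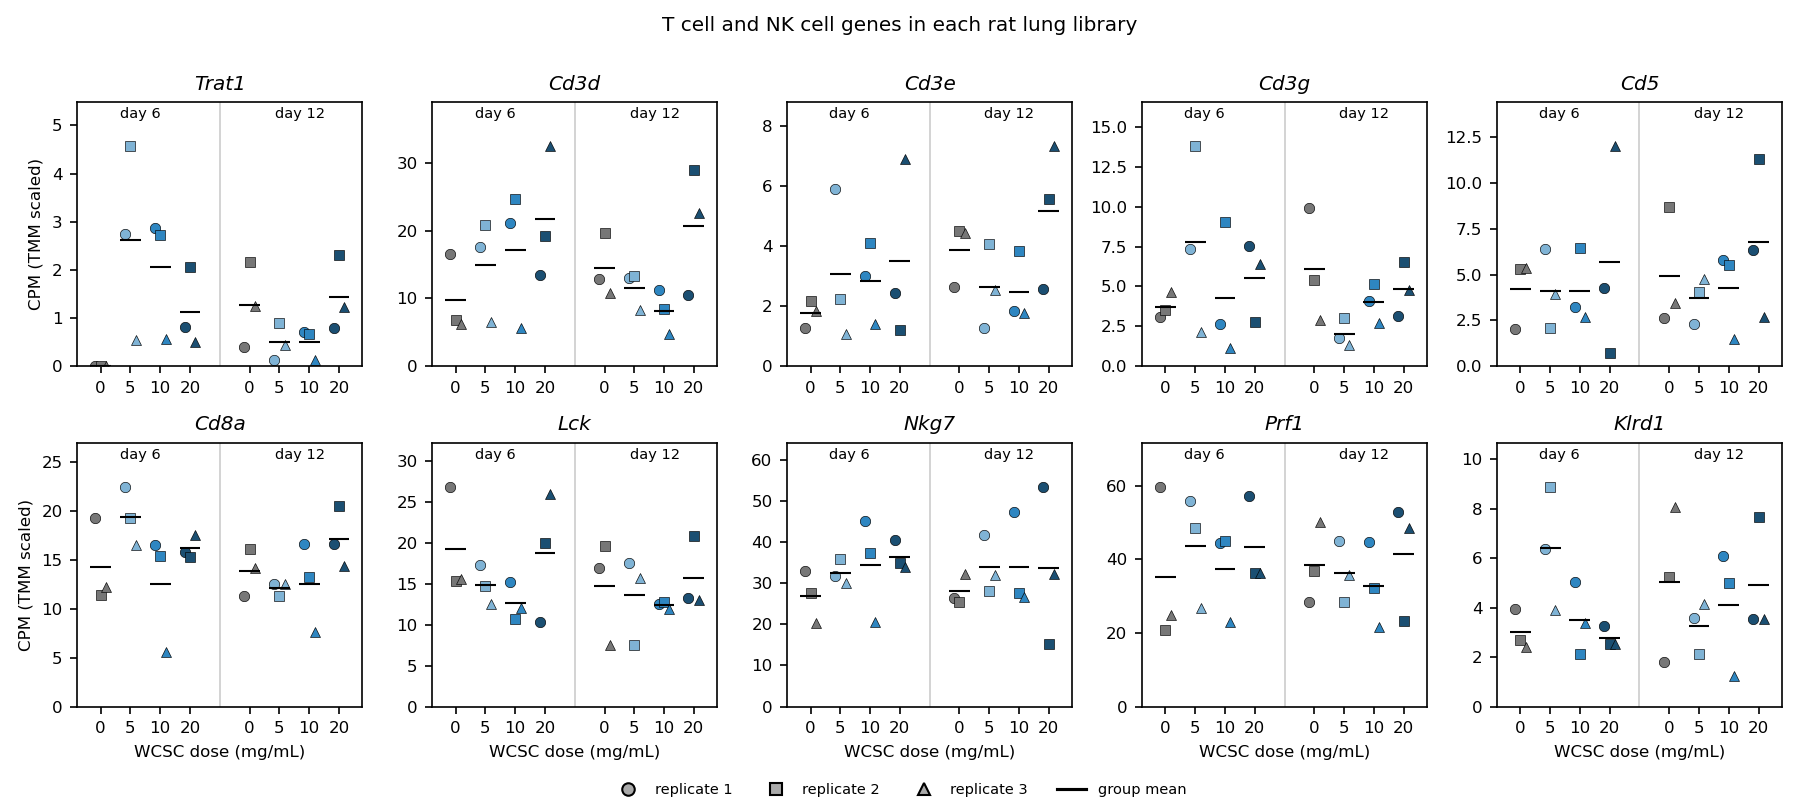
Level of each of the 10 genes in CPM after TMM scaling (y axis, from 0) against WCSC dose in mg/mL (x axis), with day 6 left and day 12 right in each panel; points are libraries with a marker per replicate and bars are means of 3. Trat1 lies at 0 in the 3 controls of day 6 and above 0 in the 9 exposed libraries of that day, while for most of the other genes the libraries of a dose spread over the range of their controls.

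Cd3d, Cd3e and Cd3g encode the delta, epsilon and gamma chains of CD3. Cd3d at day 6 had 16.5, 6.78 and 6.19 CPM in controls, 17.6, 20.8 and 6.58 CPM at 5 mg/mL, 21.2, 24.7 and 5.61 CPM at 10 mg/mL, and 13.4, 19.3 and 32.5 CPM at 20 mg/mL. Its mean was therefore 21.7 ± 9.8 CPM at 20 mg/mL and 9.81 ± 5.76 CPM in controls (SD, n = 3 each), with control replicate 1 inside the range of every exposed group. The fitted log2 fold change at 20 mg/mL was 1.15 (SE 0.528, 95% interval 0.05 to 2.25), which had an unadjusted p of 0.0404 and an adjusted p of 1 in edgeR's quasi-likelihood test. It was 0.74 without replicate 3 of 20 mg/mL and 1.75 without replicate 1 of the controls, so single libraries set its size. Replicate 3 of 20 mg/mL also had the highest sum of heart muscle markers outside 1 library of day 12 (201 CPM, 8 of 8 detected) and the lowest sum of red blood cell markers of all 24 libraries (1500 CPM). Its lymph node stroma markers had a mean log2 CPM of 4.11, the highest outside the same library of day 12. Their sum of 134 CPM lay within the range of the day 6 controls (76 to 155 CPM). The part of this tissue content in the result was not tested.

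At day 12 Cd3d had 12.9, 19.7 and 10.8 CPM in controls, 13, 13.3 and 8.31 CPM at 5 mg/mL, 11.2, 8.51 and 4.77 CPM at 10 mg/mL, and 10.5, 29 and 22.6 CPM at 20 mg/mL. The libraries of the lower doses lay within or below the range of the controls, and 2 of the 3 libraries of 20 mg/mL lay above them. For the doses of 5, 10 and 20 mg/mL the log2 fold changes were -0.33, -0.83 and 0.52 (SE 0.528, 0.536 and 0.525), and every interval held 0.

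Cd3e ranged from 1.07 to 7.32 CPM over the libraries. At day 6 it averaged 1.76 ± 0.451 CPM in controls, 3.06 ± 2.52 CPM at 5 mg/mL, 2.83 ± 1.36 CPM at 10 mg/mL and 3.51 ± 2.99 CPM at 20 mg/mL (SD, n = 3 each). Each exposed mean was above the control mean, and each exposed group had a library below the highest control. At day 12 Cd3e averaged 3.86 ± 1.07 CPM in controls, 2.62 ± 1.4 CPM at 5 mg/mL, 2.48 ± 1.17 CPM at 10 mg/mL and 5.15 ± 2.4 CPM at 20 mg/mL. The 3 controls of day 12 (2.63, 4.51 and 4.44 CPM) stood above the 3 controls of day 6 (1.28, 2.17 and 1.83 CPM), a log2 difference of 1.13 (SE 0.692, edgeR's quasi-likelihood test, unadjusted p = 0.115, adjusted p = 1).

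Cd3g at day 6 had 3.06, 3.52 and 4.64 CPM in controls, 7.36, 13.8 and 2.14 CPM at 5 mg/mL, 2.63, 9.07 and 1.12 CPM at 10 mg/mL, and 7.51, 2.78 and 6.38 CPM at 20 mg/mL. Every exposed group had libraries on both sides of the controls. At day 12 it had 9.9, 5.42 and 2.91 CPM in controls, 1.79, 3.01 and 1.34 CPM at 5 mg/mL, 4.11, 5.17 and 2.72 CPM at 10 mg/mL, and 3.17, 6.52 and 4.76 CPM at 20 mg/mL. The means at day 12 were 2.05 ± 0.869 CPM at 5 mg/mL and 6.08 ± 3.54 CPM in controls, a log2 fold change of -1.56 (SE 0.693) with an unadjusted p of 0.035 and an adjusted p of 1 in edgeR's quasi-likelihood test. The difference was -1.02 without control replicate 1, which held the 9.9 CPM, and replicate 2 of 5 mg/mL lay just above the lowest control.

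Cd5 encodes a surface receptor that dampens T cell receptor signals and is also found on some B cells. It spread over 0.724 to 12 CPM, and both ends of that range were libraries of 20 mg/mL at day 6 (4.26, 0.724 and 12 CPM, against 2.04, 5.29 and 5.35 CPM in controls). Its log2 fold changes against control ran from -0.41 (5 mg/mL, day 12) to 0.45 (20 mg/mL, day 12), with SE of 0.746 to 0.756. The 95% intervals of these changes reached from -1.98 to 2.00, so changes well inside that span were not detectable for Cd5.

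Cd8a encodes the alpha chain of CD8, which in the rat is carried by NK cells as well as by cytotoxic T cells. It was the steadiest of the 10 genes, with a coefficient of variation of 26.3% over the 24 libraries. At day 6 it averaged 14.3 ± 4.32 CPM in controls, 19.4 ± 2.97 CPM at 5 mg/mL, 12.5 ± 6 CPM at 10 mg/mL and 16.3 ± 1.2 CPM at 20 mg/mL, and at day 12 it averaged 13.8 ± 2.39, 12.1 ± 0.681, 12.5 ± 4.54 and 17.2 ± 3.1 CPM at 0, 5, 10 and 20 mg/mL (SD, n = 3 each). The 95% intervals of its 6 log2 fold changes lay between -0.89 and 1.13, so changes beyond those bounds lay outside every interval. Replicate 3 of 10 mg/mL held the lowest Cd8a value at each day (5.61 CPM at day 6 and 7.63 CPM at day 12).

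Lck, the kinase that starts the T cell receptor signal, was lower in all 3 libraries of 10 mg/mL at day 6 (15.3, 10.7 and 12.1 CPM) than in the 3 controls (26.9, 15.4 and 15.6 CPM). The gap between the nearest libraries was narrow, and the log2 fold change was -0.61 (SE 0.374, edgeR's quasi-likelihood test, unadjusted p = 0.119, adjusted p = 0.989). Of all genes tested, 3.23% had all 3 libraries of 10 mg/mL below all 3 controls at day 6. In the other comparisons with control Lck differed by -0.37 to 0.10 on the log2 scale, and each of those groups overlapped its controls.

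Nkg7 encodes a membrane protein of cytotoxic granules. At day 6 it had 33, 27.6 and 20.3 CPM in controls, 31.7, 35.9 and 30.1 CPM at 5 mg/mL, 45.2, 37.4 and 20.6 CPM at 10 mg/mL, and 40.4, 35 and 33.8 CPM at 20 mg/mL. The 3 libraries of 20 mg/mL stood narrowly above the 3 controls, and the other doses overlapped them. The log2 fold change at 20 mg/mL was 0.43 (SE 0.34, 95% interval -0.27 to 1.13, edgeR's quasi-likelihood test, unadjusted p = 0.219, adjusted p = 1). At day 12 Nkg7 had 26.3, 25.5 and 32.1 CPM in controls, 41.7, 28 and 31.9 CPM at 5 mg/mL, 47.2, 27.5 and 26.7 CPM at 10 mg/mL, and 53.4, 15.1 and 32.2 CPM at 20 mg/mL. The highest and the lowest Nkg7 of the series were both libraries of 20 mg/mL at day 12, whose log2 fold change was 0.26 (SE 0.341).

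Prf1 encodes perforin, the protein that opens pores in the membrane of the target cell. At day 6 it had 59.7, 20.9 and 24.9 CPM in controls, 55.7, 48.4 and 26.7 CPM at 5 mg/mL, 44.4, 44.9 and 22.9 CPM at 10 mg/mL, and 57.3, 36.4 and 36.4 CPM at 20 mg/mL. The highest and the lowest Prf1 of the series were both control libraries of day 6, and every exposed library lay inside that span. Its 6 log2 fold changes against control lay between -0.23 and 0.31, with SE of 0.397 to 0.4.

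Klrd1 encodes CD94, the shared chain of the NKG2 receptors of NK cells. At day 6 it had 3.95, 2.71 and 2.39 CPM in controls, 6.38, 8.88 and 3.91 CPM at 5 mg/mL, 5.03, 2.11 and 3.37 CPM at 10 mg/mL, and 3.25, 2.53 and 2.55 CPM at 20 mg/mL. The group mean at 5 mg/mL was 6.39 ± 2.48 CPM, against 3.02 ± 0.825 CPM in controls (SD, n = 3 each), with replicate 3 of 5 mg/mL just under the highest control. That log2 fold change was 1.08 (SE 0.575, edgeR's quasi-likelihood test, unadjusted p = 0.0733, adjusted p = 0.896). At day 12 Klrd1 had 1.82, 5.24 and 8.05 CPM in controls, and the 9 exposed libraries (1.23 to 7.67 CPM) overlapped them.

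Across the 10 genes, none passed the adjusted threshold of 0.05 in edgeR's quasi-likelihood test in any comparison with control, in the dose slopes, between the controls of the days or in the difference of a dose effect between days. The share of all 11421 genes past that threshold was 0% in every one of these comparisons except the dose slope at day 6, where it was 0.00876% (1 gene, which is not among the 10). Trat1 is left out of the counts at an unadjusted p under 0.05, since it passed the filter only through libraries in which it was read. Of the others, Cd3d was higher at 20 mg/mL on day 6 and 0 were lower, against 2.08% of all genes higher and 1.99% lower. There was no such gene at 10 mg/mL (1.46% of all genes higher, 1.23% lower) or at 5 mg/mL (2.53% higher, 2.18% lower) on day 6. At day 12 there was none at 20 mg/mL (2.35% of all genes higher, 1.34% lower) or at 10 mg/mL (1.03% higher, 1.06% lower), and Cd3g was lower at 5 mg/mL (0.604% of all genes higher, 0.648% lower).

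Groups that did not overlap were equally few. Trat1, which stood above all controls at each dose of day 6, is left out of these counts for the same reason. At 20 mg/mL on day 6 Nkg7 stood above all controls, a pattern that 4.08% of all genes showed. At 10 mg/mL on day 6 Lck stood below them, and no gene of the 10 but Trat1 stood above (2.99% of all genes). At 5 mg/mL on day 6 no gene of the 10 but Trat1 was separated (4.19% of all genes above, 4.13% below). At day 12 none of the 10 genes was separated from the controls at any dose, while 3.85% of all genes stood above and 3.94% below at 5 mg/mL, 3.91% above and 4.55% below at 10 mg/mL, and 3.56% above and 4.11% below at 20 mg/mL. Between the controls of the days, Cd3e was higher at day 12 in all libraries, as 4.72% of all genes were, and 4.19% of all genes were lower. Trat1, left out of the counts, was also higher in all controls of day 12 than in those of day 6.

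**Figure D2:**
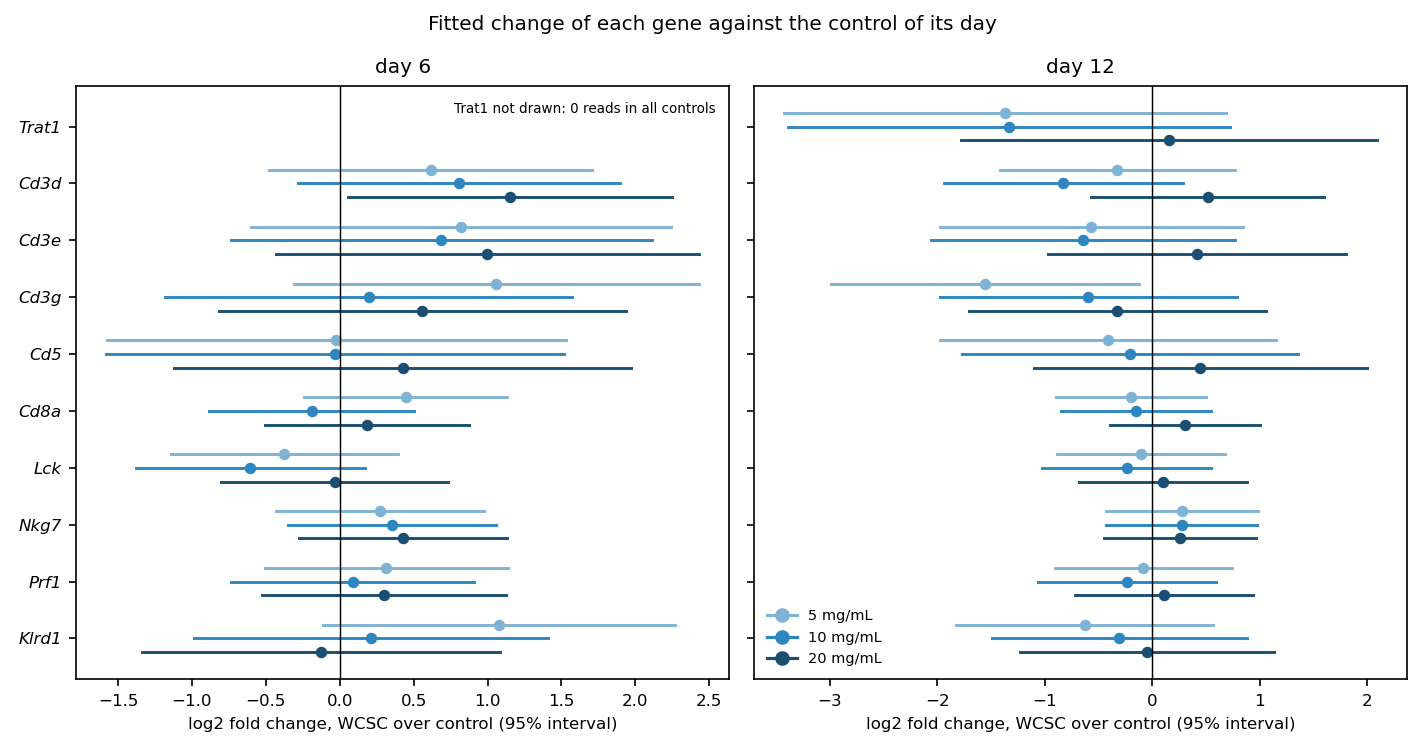
Fitted log2 fold change of WCSC over control (x axis) for each gene (y axis) and dose (colours), with 95% intervals, at day 6 (left) and day 12 (right); Trat1 is not drawn at day 6, where its controls had 0 reads. At day 6 only Cd3d at 20 mg/mL has an interval that leaves out 0, and at day 12 only Cd3g at 5 mg/mL, before adjustment over all genes.

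The signs of the fitted changes are given as counts. At day 6 the log2 fold change was above 0 for 8 of 10 genes at 5 mg/mL (median 0.53), 7 of 10 at 10 mg/mL (median 0.20) and 8 of 10 at 20 mg/mL (median 0.43), where 49.2%, 50.1% and 49.6% of all genes were above 0 and the median of all genes lay at -0.01, 0.00 and 0.00. Trat1, whose day 6 controls were at 0, is among the genes above 0 at each dose. Placing Trat1 at its lower bound leaves these medians as they are. The day 6 comparisons share their 3 controls, which ranked 14, 21 and 22 of the 24 libraries in the mean log2 CPM of the 10 genes. Without the 8 libraries in which fewest genes were detected the medians were 0.12 at 5 mg/mL and -0.29 at 10 mg/mL, each then resting on 1 exposed library. Leaving out replicate 3 of 20 mg/mL took the median at 20 mg/mL to 0.27, and leaving out replicate 2 of 20 mg/mL took it to 0.67.

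At day 12 the log2 fold change was above 0 for 1 of 10 genes at 5 mg/mL (median -0.37), 1 of 10 at 10 mg/mL (median -0.27) and 8 of 10 at 20 mg/mL (median 0.21). Nkg7 was the gene above 0 at both lower doses. Of all genes, 49.8%, 51.1% and 51.3% were above 0 in these comparisons. Without control replicate 2 the median at 5 mg/mL was -0.10, and without replicate 3 of 10 mg/mL the median at 10 mg/mL was -0.10. The median at 20 mg/mL was 0.01 without replicate 2 of that group.

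That library stood apart from all others in tissue content. Its heart muscle markers summed to 3180 CPM, against at most 201 CPM elsewhere, its lymph node stroma markers to 592 CPM, against at most 155 CPM elsewhere, and its lung epithelium markers to 18100 CPM, the lowest of the series. It had the second highest mean log2 CPM of the 10 genes (3.54), with the highest Cd3d of day 12 (29 CPM), the highest Cd5 of day 12 (11.3 CPM) and the lowest Nkg7 of the series (15.1 CPM). All 6 of 6 lymph node stroma markers were detected in it, Ccl19 and Glycam1 among them. Its thymus markers summed to 30.1 CPM (range over all libraries 13.5 to 34 CPM). Cd1d1 was the only thymus marker to pass the filter, so this sum cannot show whether thymus was present. Rag2, Aire and Foxn1 were at 0 in all 24 libraries. The other thymus markers in the files were all read in this library, as in replicate 1 of 10 mg/mL and control replicate 2 of day 12. The part of this tissue content in the day 12 values was not tested beyond leaving the library out.

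Fitted as a line in dose, Cd3d had a slope of 0.53 on the log2 scale per 10 mg/mL at day 6 (SE 0.247, edgeR's quasi-likelihood test, unadjusted p = 0.0423, adjusted p = 1) and of 0.27 at day 12 (SE 0.248, unadjusted p = 0.281, adjusted p = 0.991 in edgeR). The slope was above 0 for 9 of 10 genes at day 6 (median 0.16 per 10 mg/mL) and for 10 of 10 at day 12 (median 0.14), against 49.6% and 51.6% of all genes. Apart from Trat1, only Cd3d of the 10 had an unadjusted p under 0.05 for the slope at day 6. Of all genes, 2.73% had one with a positive slope and 2.13% with a negative one. None of the 10 had one at day 12 (2.71% and 1.65% of all genes). Without replicate 3 of 20 mg/mL the median slope at day 6 was 0.02, and without replicate 2 of 20 mg/mL the median slope at day 12 was 0.05. Klrd1 was the exception at day 6, with a slope of -0.24 (SE 0.282).

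The days were then set against each other by testing the difference between the effect of a dose at day 12 and at day 6. For the doses of 5, 10 and 20 mg/mL the median difference over the 10 genes was -0.79, -0.42 and -0.18. At 5 mg/mL the difference was -2.62 for Cd3g (SE 0.959, unadjusted p = 0.0121, adjusted p = 1 in edgeR's quasi-likelihood test) and -1.71 for Klrd1 (SE 0.814, unadjusted p = 0.0474, adjusted p = 1 in the same edgeR test). At 10 mg/mL it was -1.63 for Cd3d (SE 0.752, unadjusted p = 0.0407, adjusted p = 1 in edgeR). For Trat1, whose controls of day 6 were at 0, the difference was negative at 5 mg/mL (unadjusted p = 0.00012, adjusted p = 1 in edgeR, adjusted p = 0.0406 in DESeq2) and at 10 mg/mL (unadjusted p = 0.00021, adjusted p = 1 in edgeR, adjusted p = 0.227 in DESeq2). The difference for Trat1 was negative at 20 mg/mL as well. Apart from Trat1, the genes lower at an unadjusted p under 0.05 were thus Cd3g and Klrd1 at 5 mg/mL and Cd3d at 10 mg/mL, with none at 20 mg/mL. Of all genes, 1.02%, 1.01% and 1.86% were lower at that p in the same order of doses. A test of any difference among the 8 groups gave Trat1 an unadjusted p of 0.00388 and an adjusted p of 0.705 in edgeR and of 0.0442 in DESeq2, and 4.18% of all genes had an unadjusted p under 0.05 in edgeR. The controls enter the differences between days with the opposite sign, and between the controls of day 12 and of day 6 the median of the 10 genes was 0.39, with 8 of 10 above 0 and 47.9% of all genes above 0. Apart from Trat1, no gene of the 10 had an unadjusted p under 0.05 between the controls, where 1.17% of all genes were higher and 1.29% lower at day 12.

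Related genes were read from 5 wider lists of T cell surface molecules, signalling proteins, NK receptors, granule proteins, and transcription and homing factors, with 84 genes in all, of which 78 had a line in the files and 61 were tested. None of the 61 passed the adjusted threshold of edgeR's quasi-likelihood test in any comparison. At an unadjusted p under 0.05, 0 to 5 of them were higher and 0 to 2 lower in each of the 6 comparisons with control, where 0.604% to 2.53% of all genes were higher and 0.648% to 2.18% lower. Ctla4, Il7r and Ifng had 0 reads in all 24 libraries. At day 6 the log2 fold change was above 0 for 40 of 61 genes at 5 mg/mL, 36 of 61 at 10 mg/mL and 45 of 61 at 20 mg/mL, with medians of 0.22, 0.13 and 0.34, against 49.2%, 50.1% and 49.6% of all genes above 0. At day 12 it was above 0 for 16 of 61 at 5 mg/mL, 17 of 61 at 10 mg/mL and 36 of 61 at 20 mg/mL, with medians of -0.22, -0.30 and 0.07, against 49.8%, 51.1% and 51.3% of all genes. The medians of the wider lists and of the 10 genes come from the same libraries and the same controls.

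At 20 mg/mL on day 6, 5 of the 61 genes were higher and 1 lower at an unadjusted p under 0.05, as 2.08% and 1.99% of all genes were. Slamf7, a receptor of NK and plasma cells, averaged 20.0 ± 12.9 CPM at 20 mg/mL and 5.62 ± 2.42 CPM in controls, a log2 fold change of 1.83 (SE 0.588, unadjusted p = 0.00503, adjusted p = 1 in edgeR). Cst7, an inhibitor of granule proteases, averaged 16.5 ± 3.56 CPM at 20 mg/mL and 8.96 ± 0.0955 CPM in controls (log2 fold change 0.88, SE 0.309), and Cd7, an early T and NK surface molecule, averaged 12.7 ± 4.21 CPM at 20 mg/mL and 5.45 ± 0.933 CPM in controls (log2 fold change 1.22, SE 0.438). In these 3 genes the exposed libraries did not overlap the controls. Of the 61 genes, 4 stood above all controls and 0 below in this comparison, as 4.08% and 4.67% of all genes did. Ctsw, a protease of cytotoxic cells, and Sh2d2a, an adaptor of T cell signalling, were higher by 1.59 and 1.35 on the log2 scale with overlapping libraries, and Txk, a kinase of T cells, was lower, at 7.57 ± 2.06 CPM at 20 mg/mL and 13.8 ± 4.53 CPM in controls.

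The natural cytotoxicity receptors had few reads. Ncr3 had 0 CPM in all 3 controls of day 12 and averaged 0.49 ± 0.383 CPM at 5 mg/mL, 0.377 ± 0.27 CPM at 10 mg/mL and 1.27 ± 1.11 CPM at 20 mg/mL of that day, where the 20 mg/mL libraries overlapped the controls. Ncr1 averaged 3.63 ± 1.28 CPM at 5 mg/mL on day 6 and 0.789 ± 0.684 CPM in controls, with no overlap. In that comparison 4 of the 61 genes stood above all controls and 1 below, as 4.19% and 4.13% of all genes did. Ikzf3, a transcription factor of mature lymphocytes, averaged 4.7 ± 0.96 CPM at 5 mg/mL on day 12 and 12.0 ± 1.78 CPM in controls (log2 fold change -1.35, SE 0.414, unadjusted p = 0.00349, adjusted p = 1 in edgeR's quasi-likelihood test). Of the 7 B and plasma cell markers tested in that comparison, 6 had a log2 fold change below 0 (median -1.32), 4 of them at an unadjusted p under 0.05 in edgeR, where 0.648% of all genes were lower at that p. The markers of this list summed to 100, 149 and 49 CPM in the controls and to 42.2, 47.2 and 34.9 CPM at 5 mg/mL. Control replicate 2, with the 149 CPM, also had 8 of 8 heart muscle markers detected (150 CPM). The part of tissue content in these differences was not tested.

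The 10 genes did not all follow each other. Over the 24 libraries the Pearson correlation of log2 CPM was above 0 in 38 of the 45 pairs, with a median of 0.302. Nkg7 and Prf1 had the highest value (r = 0.729, Spearman's rho = 0.697, r = 0.729 within day 6 and 0.773 within day 12), followed by Cd3d with Cd8a (r = 0.688, rho = 0.612) and Trat1 with Cd3d (r = 0.634, rho = 0.63). Leaving out the 2 libraries farthest from the median of the first gene gave 0.699, 0.623 and 0.708 for these pairs. The neighbours Cd3d and Cd3g had r = 0.54. The lowest value was that of Cd5 with Nkg7, at -0.168. Correlated against the mean of the other 9 genes, Cd3d (r = 0.778) and Cd8a (r = 0.774) followed the set most, and Nkg7 (r = 0.126) and Lck (r = 0.107) least. For Nkg7 that value differed between the days, at 0.672 within day 6 and -0.328 within day 12, and replicate 2 of 20 mg/mL at day 12 held its lowest level. These correlations are descriptions over libraries that share groups, depth scaling and tissue content.

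**Figure D3:**
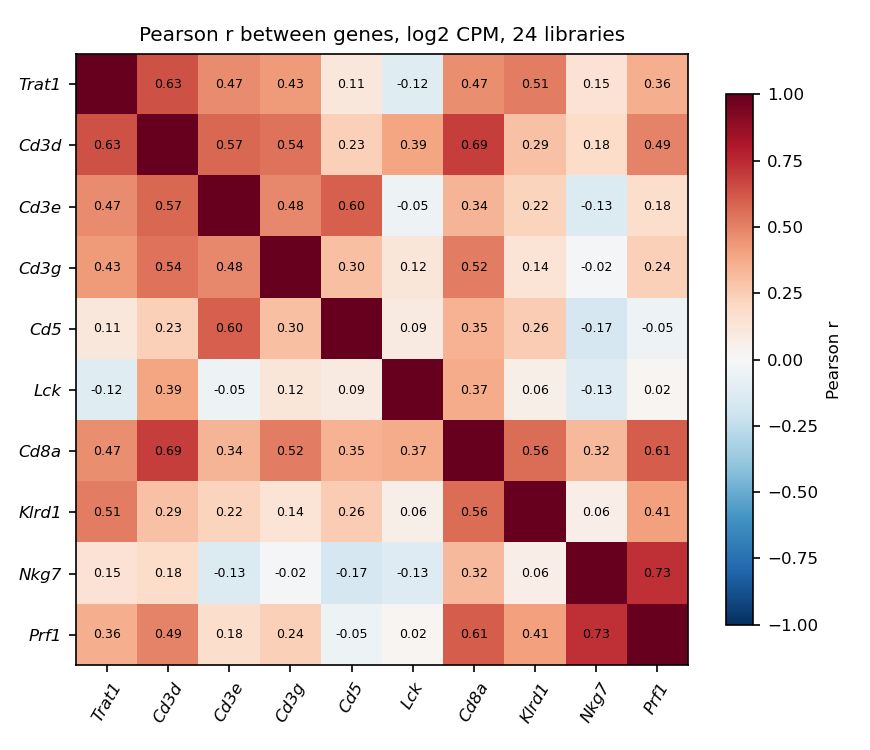
Pearson correlation of log2 CPM between each pair of the 10 genes over the 24 libraries, from -1 (blue) to 1 (red), with the value written in each cell. Nkg7 and Prf1 form the pair with the highest value, 0.73, and the CD3 genes with Trat1 and Cd8a form a block of positive values, while Lck and Cd5 lie between -0.17 and 0.02 with Nkg7 and Prf1.

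By their Pearson correlation with the mean log2 CPM of the 10 genes over the 24 libraries, the genes most like them outside the set were Pycard (r = 0.867), Rps26 (0.818), Npm1 (0.814), Il13ra1 (0.812), Rab9a (0.811), Clec10a (0.808), H2afz (0.806), Ifi30 (0.805), Rpl7a (0.804) and Acadl (0.799). For Pycard the correlation was 0.882 within day 6 and 0.872 within day 12. None of these genes is on any of the wider lymphocyte lists.

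The mean log2 CPM of the 10 genes ran from 2.10 in replicate 3 of 10 mg/mL at day 12 to 3.62 in replicate 1 of 5 mg/mL at day 6, and the SD within groups was 0.41. Its correlation with the mean of the macrophage markers was r = 0.585 (rho = 0.595, 0.485 without the 2 farthest libraries) over all libraries, 0.681 within day 6 and 0.423 within day 12. With the neutrophil markers it was r = 0.546 (rho = 0.6), and with the lymph node stroma markers r = 0.549 (rho = 0.497, 0.479 without the 2 farthest libraries). With Cd1d1, the only thymus marker tested, it was r = 0.541, with heart muscle markers 0.362 (rho = -0.00435) and with red blood cell markers 0.165. With the lung epithelium markers it was 0.0441 over all libraries, 0.733 within day 6 (rho = 0.65) and -0.272 within day 12. With the B cell markers it was 0.422 over all libraries, 0.0273 within day 6 and 0.712 within day 12, the last falling to 0.432 without the 2 farthest libraries. With the count of detected genes after thinning it was -0.357 over all libraries and -0.538 within day 6. With the total count of a library it was 0.279 over all libraries, 0.613 within day 6 (rho = 0.664) and -0.315 within day 12.

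At day 6 the summed macrophage markers (10 of 12 tested, Marco at 0 in every library) ranged over 18900 to 35200 CPM in controls, 19300 to 46700 CPM at 5 mg/mL, 18700 to 49500 CPM at 10 mg/mL and 27900 to 37900 CPM at 20 mg/mL. The summed neutrophil markers (10 of 10 in the files) ranged over 220 to 795, 297 to 969, 316 to 861 and 495 to 765 CPM in the same order of doses. These summed ranges overlapped between exposed libraries and controls. Gene by gene at 20 mg/mL on day 6, 10 of 10 tested macrophage markers had a log2 fold change above 0 (median 0.59), 5 of them at an unadjusted p under 0.05 in edgeR, and in 2 the exposed libraries stood above all controls. Of the neutrophil markers, 7 of 7 tested were above 0 (median 0.65), 0 at an unadjusted p under 0.05 in edgeR, and 2 stood above all controls. The shares of all genes in that comparison were 49.6% above 0, 2.08% higher at an unadjusted p under 0.05 and 4.08% above all controls. The part of these cells, of depth and of detection in the T and NK cell values was not tested.

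**Figure D4:**
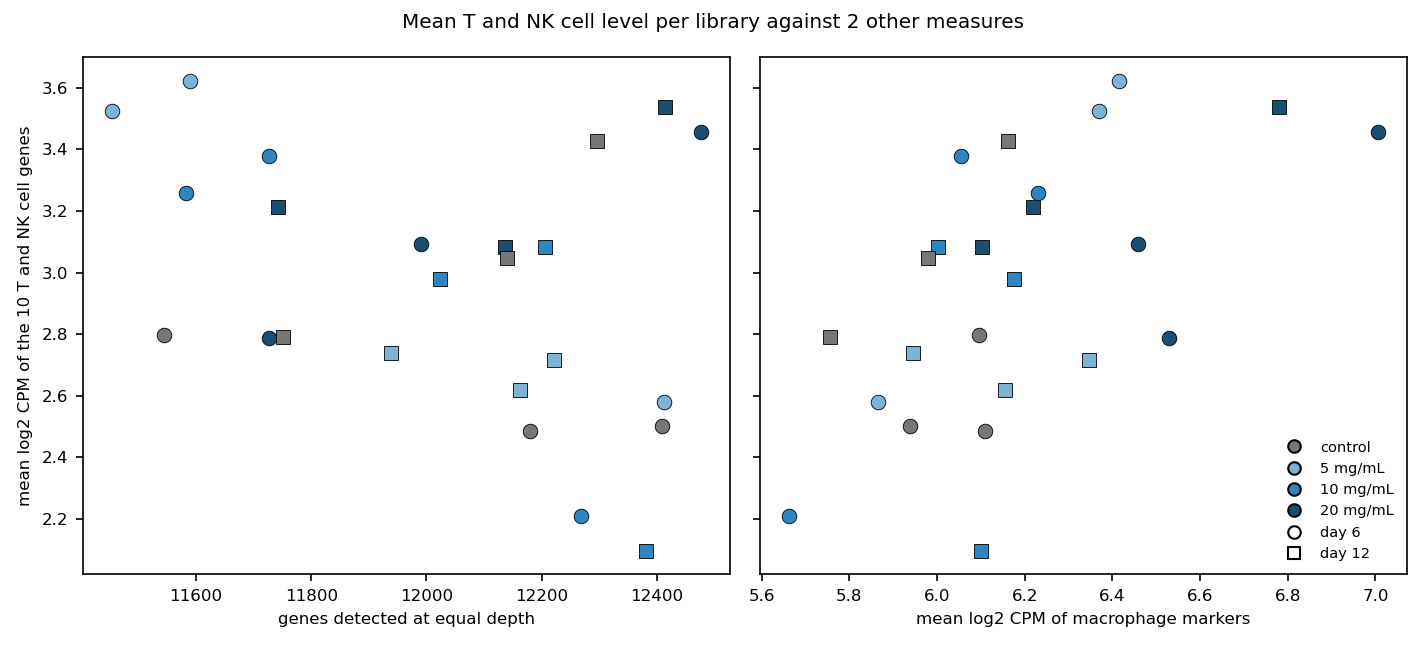
Mean log2 CPM of the 10 T and NK cell genes in each library (y axis) against the count of genes detected after thinning to 1 depth (left) and the mean log2 CPM of the macrophage markers (right); colours are doses, circles day 6 and squares day 12. The 4 libraries at 5 and 10 mg/mL of day 6 with few detected genes lie at 3.26 to 3.62, and replicate 3 of those doses at 2.58 and 2.21. Replicate 2 of 20 mg/mL and control replicate 1 of day 6, also with few detected genes, lie at 2.79 and 2.80. Replicate 3 of 20 mg/mL of day 6, with the most detected genes, lies at 3.46.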

How the data were processed

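RNA of 24 rat lung samples was read with Lexogen QuantSeq libraries (transcript ends), per the labels' protocols. Bowtie2, bedtools and rn6 are named in the submitters' processing notes, with no annotation or strand setting (not given in the sources used here). Deposited files hold raw read counts in 17048 lines; for symbols on several lines the line with most counts was kept (0.772% of the counts left out). Totals ran from 4795667 to 11109713 (median 6840815).

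Genes passing filterByExpr were TMM scaled (factors 0.804 to 1.12) and fitted with edgeR 4.0.16 (R 4.3.3) quasi-likelihood as 8 group means (16 residual degrees of freedom), with two-sided tests adjusted by Benjamini-Hochberg over 11421 genes. Log2 CPM used a prior count of 2, and detected genes were counted after thinning to 4758014 reads. The floor of 3 counts covers counting error only. The fit was tested on simulated data. Changes were placed there only in genes above a set mean CPM, which low-level genes of the 10, Trat1 and Cd3e among them, did not reach. Recovery of changes at such low levels was not tested. For Cd3g, Cd5 and Klrd1, with medians of 3.82, 4.17 and 3.57 CPM over the 24 libraries, recovery is not claimed either.

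Alternatives were other scalings, no filter, DESeq2 1.42.0, limma 3.58.1 voom, fits of only the groups compared, a replicate block, a covariate for detected genes and left-out libraries. The genes, lists and tests were chosen with earlier results of these data known. Genes of the 10 with an unadjusted p under 0.05, or else the smallest p of a comparison, were named; wider-list genes were named after their values were seen. No p is given for the mean of the 10 genes.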

Additional observations from a re-analysis of the deposited data

How the results depend on the processing

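In edgeR none of the 10 genes passed the adjusted threshold under RLE or upper-quartile scaling, without a filter, with detected genes as a covariate, with repeated symbols left out, or with any single library left out (0 in each). DESeq2 called 1 gene, Trat1, in 3 comparisons: 5 mg/mL at day 6 (adjusted p = 0.0452), the 5 mg/mL effect at day 12 minus day 6 (0.0406) and any difference among the 8 groups (0.0442); over all genes it called 2, 2 and 51, against 0, 0 and 0 in edgeR. The cause was not tested. Over the other comparisons DESeq2 called 0 to 11 genes and voom 0 to 5, against 0 or 1 in edgeR, and without a filter 16 genes differed among the 8 groups. Trat1 could not be tested in fits of only the groups compared for the doses of either day, the slope at day 12 and the controls, since it did not pass their filter. Same-numbered libraries correlated over 0.1 in 10 of 18 pairs at day 6 and in 4 of 18 at day 12, with medians of 0.172 and 0.0216 (libraries of different number -0.104 and -0.019); the 6 replicate 3 pairs of day 6 had 0.212 to 0.591. Since not every pair exceeded 0.1, the numbers were not used as pairs; with the replicate block 0 of the 10 genes passed in every comparison.

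The median log2 fold change of the 10 genes moved by more than the SD between replicates in 4 cases. Without the 8 libraries in which fewest genes were detected it was -0.29 at 10 mg/mL and 0.12 at 5 mg/mL on day 6, and -0.34 for the 5 mg/mL effect at day 12 minus day 6, which was -1.23 with voom; the cause was not tested. With each library left out in turn, the medians at 5, 10 and 20 mg/mL ranged over 0.31 to 0.83, 0.11 to 0.48 and 0.27 to 0.67 at day 6, and over -0.55 to -0.10, -0.51 to -0.10 and 0.01 to 0.40 at day 12. The SE of the log2 fold changes against control was 0.746 to 0.756 for Cd5 and 0.332 to 0.337 for Cd8a.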
